A study of Bos taurus with 9 samples.

Results

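Transcripts of 9 genes that build the keratin filaments and desmosomes of simple epithelia were followed in cloned cattle embryos. Cloning was by somatic cell nuclear transfer (SCNT): an oocyte loses its own nucleus and receives that of a cultured body cell. The members were the rows whose symbol was KRT8, KRT18, KRT19, DSP, DSC2, DSG2, JUP, PKP2 or PERP, each matched by 1 row among the 16129 genes present in every library, and the same row was followed between libraries by its Ensembl identifier. PERP carries its symbol in the 8-cell files only, so its morula values rest on that identifier (ENSBTAG00000020097.2).

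The libraries fell into 3 groups of 3. All came from cloned Bos taurus embryos labelled Holstein, and the protocols in the labels name fibroblasts from 1 female Holstein fetus as donor cells. KDM6A morulae came from reconstructed embryos given mRNA for wild-type bovine KDM6A, a demethylase of lysine 27 on histone H3, 1 h after activation. Control morulae were cloned morulae with no injection, so the handling of an injection is not matched between the groups, and each morula library was a pool of 5 embryos taken on day 5; the pool size of the 8-cell libraries is not known. The third group, 8-cell cloned embryos without KDM6A, was taken by the submitters from an earlier series, so in comparisons with that group stage cannot be told apart from source series. The labels do not say that pools came from separate oocyte batches, so p-values measure only how these samples vary, and that variation may be technical.

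Keratins 8 and 18 are a type II and a type I intermediate filament protein, and keratins polymerise only as pairs of both types. Keratins 8 and 18 are those with which simple epithelia and the trophectoderm, the outer layer of the blastocyst, are known to begin. Desmosomes fasten such filaments to the cell surface: desmogleins and desmocollins are cadherins that span the gap between neighbouring cells, plakoglobin (JUP) and plakophilins bind their tails, and desmoplakin (DSP) links the plaque to keratin. In mammalian embryos these junctions are known to assemble around the time of compaction and cavitation, after adherens junctions.

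KDM6A transcript stood at 10.72 to 13.86 FPKM (sequenced fragments divided by transcript length and by library size) in control morulae and at 35.65, 87.58 and 79.44 in KDM6A morula replicates 1, 2 and 3, lowest in replicate 1. These totals do not separate injected mRNA from the embryo's own. The embryo and lineage markers POU5F1, NANOG, SOX2, GATA6, GATA3, TFAP2C, TEAD4 and CLDN6 had a group mean of at least 1 FPKM in every group, and 1 further marker of that list, SOX17, was at most 0.04 FPKM in any morula library. Cumulus and granulosa markers (9 of 12 listed are in the files), from cells that surround the oocyte, summed to 12.1 to 14.6 FPKM per control morula library, 7.60 to 12.7 per KDM6A morula library and 18.8 to 36.8 per 8-cell library. In 8-cell libraries HAS2 (5.57 to 19.82 FPKM) and TNFAIP6 (5.79 to 9.56) were called higher than in control morulae (limma adjusted p = 0.00074 and 0.0026), while PTX3, AMHR2 and CYP11A1 were at 0. STAR led that list in every morula library, at 7.95 to 9.31 FPKM in control morulae. It was at 3.52 to 10.82 in 8-cell libraries and was not called between them (limma adjusted p = 0.298). AMH, CYP19A1, INHBA and CYP11A1 were under 1 FPKM in every library, with higher means in control morulae than in 8-cell embryos. The 13 donor fibroblast markers summed to 48.1 to 66.7, 56.4 to 75.0 and 35.9 to 92.7 FPKM in control morulae, KDM6A morulae and 8-cell embryos. A mean of at least 1 was reached by 6, 5 and 10 of them. In morulae PDGFRA (13.83 to 32.41), S100A4 (12.45 to 20.2) and DCN (7.63 to 27.06) led that list, and COL3A1 was at most 0.01; S100A4 and THY1 were called higher, and COL5A1, LUM and FBN1 lower, in both morula groups than in 8-cell embryos. Oocyte transcripts (9 of 10 listed are in the files) summed to 3732 to 9042 FPKM in 8-cell libraries, 110 to 191 in KDM6A morulae, and 458, 20.6 and 111 in control morula replicates 1, 2 and 3. What these other transcripts contribute to the results below was not tested.

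The 9 members differed widely in level. In control morulae PERP, a membrane protein of desmosomes, led at 111 ± 20.2 FPKM (SD, n = 3), and its lowest library (93.6) lay above every library of any other member. KRT18 (46.6 ± 17.7), DSG2 (32.4 ± 9.42), PKP2 (25.97 ± 6.50) and KRT8 (16.9 ± 4.36) followed, each overlapping the next in its range. JUP (7.96 ± 0.252) and KRT19 (5.29 ± 1.081) came after with no overlap, and DSC2 (1.21 ± 0.204) and DSP (1.11 ± 0.524) were lowest and overlapped each other. FPKM is scaled per length, but how reads matching several genes were divided is not stated, so this order between genes is approximate. The order of the means was the same in KDM6A morulae. In 8-cell embryos it was another order, led by PKP2 (5.53 ± 2.28), KRT19 (3.78 ± 2.006) and PERP (3.53 ± 0.439), whose neighbouring ranges overlapped, and ended by DSG2, KRT18, KRT8 and DSP, each with a mean under 1 FPKM.

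**Figure D1:**
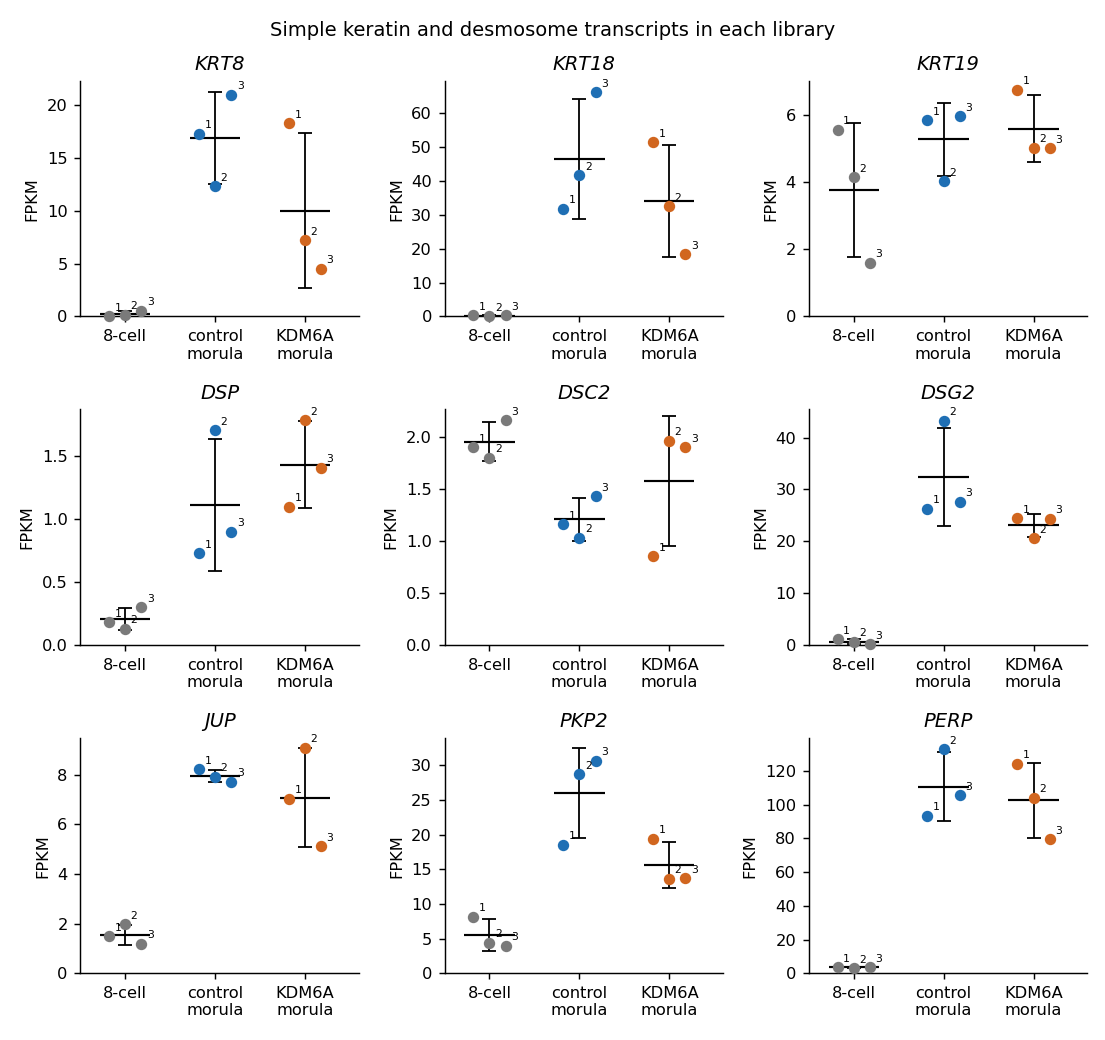
FPKM of each member in every library (linear axes from 0, one panel per gene). Numbered points are replicates, horizontal bars are group means and whiskers are 1 SD (n = 3); KRT8, KRT18, DSG2 and PERP are near the axis in all 8-cell libraries, KRT19 overlaps between the groups, the 8-cell libraries of DSC2 lie above its control morulae, and KDM6A replicates 2 and 3 lie below replicate 1 for KRT8 and KRT18.

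KRT8 and KRT18 went from values near 0 in 8-cell embryos to among the better expressed genes in control morulae. KRT8, the type II partner, was at 0, 0.15 and 0.53 FPKM in 8-cell replicates 1, 2 and 3 and at 17.28, 12.3 and 20.99 in control morula replicates 1, 2 and 3. KRT18, its type I partner, was at 0.31, 0.04 and 0.41 in the same 8-cell libraries and at 31.76, 41.73 and 66.19 in the control morulae. Neither gene's groups came near each other. Ranked among the 16129 genes of each library, KRT18 stood between percentiles 21.6 and 36.7 in 8-cell embryos and between 83.3 and 89.9 in control morulae, and KRT8 between 9.59 and 38.9 and between 71.7 and 79.4. In KDM6A morulae KRT18 stood between 78.2 and 87.7 and KRT8 between 58.9 and 77.0. The log2 fold change of FPKM + 1 was 3.86 for KRT8 (SE 0.279, limma adjusted p = 3.65e-06) and 5.19 for KRT18 (SE 0.301, adjusted p = 1.36e-06). Since RNA of whole embryos was sequenced in bulk, fewer cells expressing a gene and less RNA per cell cannot be told apart, here and in the comparisons that follow.

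KRT19, a type I keratin that lacks the tail of KRT18, did not follow that pattern. It was already at 5.57, 4.15 and 1.61 FPKM in the 8-cell libraries, against 5.85, 4.04 and 5.97 in control morulae and 6.77, 5.04 and 5.02 in KDM6A morulae. The 3 groups overlapped. Its log2 fold change between control morulae and 8-cell embryos was 0.48 (95% interval -0.29 to 1.26, limma adjusted p = 0.238), close to the median of all genes tested, 0.35, and the difference between KDM6A morulae and 8-cell embryos was 0.56 (-0.21 to 1.33, adjusted p = 0.177). Within a library, which removes the library's scale, there were 17.97, 103.8 and 3.93 KRT19 units per unit of KRT18 in the 8-cell replicates and 0.184, 0.0968 and 0.0902 in the control morulae. The log2 of that ratio differed by -7.37 (exact two-sided permutation p = 0.1, the smallest that 3 against 3 allows, 0.175 adjusted over the 7 ratio comparisons made). The 8-cell ratios divide by KRT18 values of 0.04 to 0.41 FPKM, and with 1 FPKM added to both genes the difference was -4.71.

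Among the cadherins, DSG2 and DSC2 moved apart. DSG2, the desmoglein of simple epithelia, was at 1.09, 0.59 and 0.13 FPKM in 8-cell embryos and at 26.31, 43.26 and 27.67 in control morulae. Its change was 4.39 on the log2 scale (SE 0.305, limma adjusted p = 3.06e-06). DSC2, the desmocollin of simple epithelia, was at 1.9, 1.8 and 2.16 in 8-cell embryos and at 1.16, 1.03 and 1.43 in control morulae. All 8-cell libraries were above all control morulae for DSC2, with a log2 fold change of -0.42 (95% interval -0.88 to 0.034, adjusted p = 0.0887). That was no call as deposited, but DSC2 was called lower after quantile normalization (-0.71, adjusted p = 0.0125) and after scaling by medians of ratios (-0.55, adjusted p = 0.0382). DSG2 per DSC2 was 0.574, 0.328 and 0.0602 in the 8-cell replicates and 22.7, 42.0 and 19.4 in control morulae, and the log2 ratio differed by 6.88 (exact permutation p = 0.1, 0.175 adjusted over 7). With 1 FPKM added to both genes this difference was 4.81.

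The plaque proteins and PERP were higher in control morulae by unequal amounts. PERP was at 3.84, 3.03 and 3.73 FPKM in 8-cell embryos and at 93.59, 133.06 and 105.52 in control morulae, a 31.3-fold difference of means (log2 fold change 4.61, SE 0.216, limma adjusted p = 5.58e-07). JUP, which also serves adherens junctions, rose from 1.5, 1.98 and 1.19 FPKM to 8.23, 7.93 and 7.73, by 1.82 log2 units (SE 0.231, adjusted p = 8.36e-05). PKP2, the plakophilin of simple epithelia and heart, was present at 8.15, 4.45 and 3.99 in 8-cell embryos and rose to 18.55, 28.73 and 30.63, a log2 fold change of 2.07 (SE 0.301, adjusted p = 0.000194). In each of these 3 genes every control morula lay above every 8-cell library. DSP was low throughout, at 0.18, 0.13 and 0.3 FPKM in 8-cell embryos and 0.73, 1.71 and 0.9 in control morulae. Only 1 of those 6 libraries reached 1 FPKM, so DSP was not tested there. With no filter its log2 fold change was 0.79 (limma adjusted p = 0.0190).

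Counted together, 6 members rose and 0 fell in control morulae among the 8 tested, where 69.8% of all 10048 genes tested were called, 42.7% higher and 27.1% lower. The groups did not overlap for 7 of the 8, DSC2 in the lower direction, where 74.5% of all genes did not overlap. All 8 had passed the filter of 1 FPKM in 3 libraries through the morulae alone or through both groups; KRT8, KRT18 and DSG2 reached it in all 3 control morulae and in 0, 0 and 1 of the 8-cell libraries, so they could enter the test only by differing. The median log2 fold change of the 8 was 2.96 against 0.35 over all genes tested. The 6 calls were kept under each alternative in which the gene was tested. Rescaling the libraries lowered the all-gene median to 0.069 (quantile normalization) and 0.15 (medians of ratios), and the 6 members stayed called higher under each.

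KDM6A morulae were set against the same 8-cell libraries, so this comparison shares its 8-cell samples with the previous one and adds no separate evidence on them. The log2 fold changes were 2.99 for KRT8, 4.71 for KRT18, 3.95 for DSG2, 4.49 for PERP, 1.64 for JUP, 1.38 for PKP2 and 1.01 for DSP, with limma adjusted p-values from 4.24e-07 for PERP to 0.00207 for PKP2. DSP could be tested here because its 3 KDM6A morulae (1.1, 1.79 and 1.41 FPKM) reached the filter. DSC2 was at 0.85, 1.96 and 1.9 FPKM in KDM6A morulae, overlapping the 8-cell libraries, with a difference of -0.23 (95% interval -0.80 to 0.34, adjusted p = 0.448). In all, 7 of 9 members were called higher and 0 lower, where 66.7% of 10024 genes were called, 41.1% higher and 25.6% lower. KRT8, KRT18, DSP and DSG2 reached 1 FPKM in all 3 KDM6A morulae and in 0, 0, 0 and 1 of the 8-cell libraries. They thus entered the test through the group in which they were higher. The groups did not overlap for 7 of 9, against 71.3% of all genes.

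**Figure D2:**
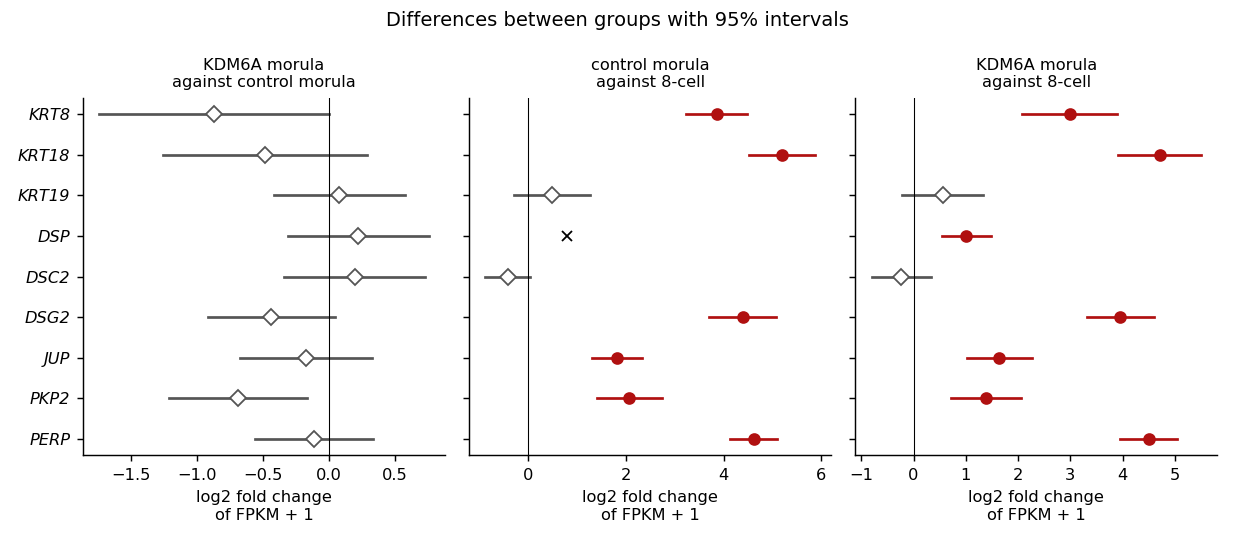
Log2 fold change of FPKM + 1 for each member in the 3 comparisons, with 95% intervals from limma; filled circles passed the adjusted threshold of 0.05, open diamonds did not, and the cross is DSP, which was below the filter. The horizontal axes differ between panels: intervals of KRT8, KRT18, DSG2 and PERP lie above 2 in both comparisons with 8-cell embryos, while no member is called in the first panel.

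The effect of supplying KDM6A was read from KDM6A against control morulae, and no member was called. Among 9777 genes tested, 0.164% were called, 0.123% higher and 0.0409% lower, so an absence of calls among 9 genes is near the background. At an unadjusted p under 0.05 there were 2 members, KRT8 and PKP2, both lower, where 12.7% of all genes passed and 6.41% passed and were lower. All 9 members were tested, with a median log2 fold change of -0.18 against -0.012 over all genes. The groups did not overlap for 1 member, DSG2, where 15.7% of all genes did not overlap.

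PKP2 had the smallest p of the members. It was at 18.55, 28.73 and 30.63 FPKM in control morulae and at 19.42, 13.64 and 13.69 in KDM6A morulae. Replicate 1 of the KDM6A morulae lay just above the lowest control, and the other two lay below all controls. Its log2 fold change was -0.69 (95% interval -1.21 to -0.17, limma p = 0.0146, adjusted p = 0.298, exact permutation p = 0.2). KRT8 was at 18.31, 7.21 and 4.51 in KDM6A morulae, against 17.28, 12.3 and 20.99 without injection, a change of -0.87 (-1.74 to -0.0013, adjusted p = 0.392). KRT18 was at 31.76, 41.73 and 66.19 and at 51.52, 32.49 and 18.45, a change of -0.49 (-1.26 to 0.29, adjusted p = 0.579). For both keratins KDM6A replicate 1 lay inside the control range and replicate 3 below it. DSG2 was at 24.41, 20.55 and 24.37 FPKM in KDM6A morulae, each under the lowest control of 26.31, with a change of -0.44 (-0.92 to 0.042, adjusted p = 0.425).

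The ranges of the remaining members overlapped between the groups. JUP was at 7.04, 9.09 and 5.12 FPKM in KDM6A morulae against 7.73 to 8.23 in controls, 1 library above the control range and the others below it, a change of -0.18 (95% interval -0.68 to 0.32). PERP was at 124.21, 104.06 and 79.42 against 93.59 to 133.06, a change of -0.12 (-0.56 to 0.33). KRT19 differed by 0.077 (-0.42 to 0.57), DSP by 0.22 (-0.31 to 0.75) and DSC2, whose KDM6A libraries also lay on both sides of the control range, by 0.19 (-0.34 to 0.73), and adjusted p-values of these 5 ran from 0.730 to 0.912 (limma). The intervals reach from -0.68 to 0.75, so these values do not show that the levels were equal. Signs for KRT19, JUP and PERP turned in some of the alternatives, and no direction is given for them.

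The call for KRT8 depended on the libraries kept and on their weights. Without KDM6A replicate 1, the KDM6A morula library with the lowest total KDM6A FPKM, its change was -1.38 and passed the threshold (limma adjusted p = 0.0173), in a fit that called 7.56% of all genes. PKP2 then had a change of -0.85 (adjusted p = 0.0561) and KRT18 one of -0.83 (adjusted p = 0.138). Replicate 3 (KDM6A at 79.44 FPKM), not replicate 2 (87.58 FPKM), had the lowest KRT8 and KRT18 of the KDM6A morulae. Whether the KDM6A level bears on these changes was not tested. Without KDM6A replicate 3 the changes were -0.47 for KRT8 and -0.12 for KRT18. With limma's array weights, which let each library count by its estimated precision, KRT8 (-1.26, adjusted p = 0.0045), KRT18 (-0.82, adjusted p = 0.0306) and PKP2 (-0.96, adjusted p = 0.0032) were all called lower, in a fit that called 25.7% of all genes and gave KDM6A replicate 2 a weight of 3.36 and control replicate 3 one of 2.93, against 0.344 to 0.702 for the others. Over the 14 alternatives the changes of KRT8 ran from -1.38 to -0.47, those of KRT18 from -0.83 to -0.12, those of PKP2 from -0.96 to -0.56 and those of DSG2 from -0.57 to -0.22. All of these were below 0. KRT8, KRT18, PKP2 and DSG2 had the smallest p of the members in the main fit. The alternatives reuse the same libraries, so the shared sign adds no separate evidence of a lowering. DSP (0.091 to 0.42) and DSC2 (0.074 to 0.41) stayed above 0 in the 13 alternatives in which each was tested. The signs of KRT19, JUP and PERP turned in some alternatives.

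**Figure D3:**
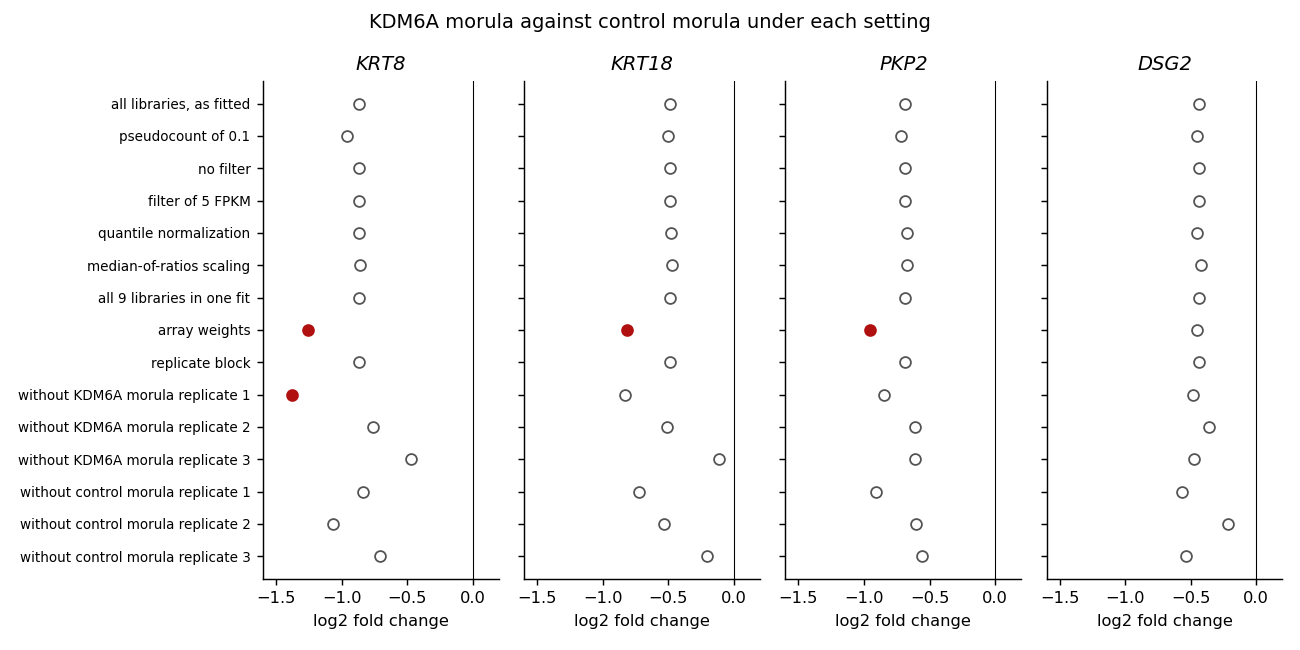
Log2 fold change of KRT8, KRT18, PKP2 and DSG2 between KDM6A and control morulae (horizontal axis) with all libraries and under each of 14 alternatives (vertical axis). Filled points passed the adjusted threshold of 0.05; these are KRT8 without KDM6A replicate 1, and KRT8, KRT18 and PKP2 with array weights.

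The ratio of the keratin partners was also compared within libraries. KRT8 per KRT18 was 0.544, 0.295 and 0.317 in control morula replicates 1, 2 and 3 and 0.355, 0.222 and 0.244 in KDM6A morulae. The groups overlapped, and the log2 ratio differed by -0.47 (exact two-sided permutation p = 0.3, also 0.3 adjusted over 7). KRT18 exceeded KRT8 in all 6 morula libraries. KRT19 per KRT18 and DSG2 per DSC2 differed between the morula groups by 0.60 and -0.75 on the log2 scale (exact permutation p = 0.3 for each, 0.3 adjusted).

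Other keratins supplied part of the type II share. KRT5, the type II keratin known from basal cells of stratified epithelia, was at 26.24, 40.04 and 27.8 FPKM in control morulae, at 39.11, 15.93 and 16.54 in KDM6A morulae and at 1.36, 1.3 and 0.55 in 8-cell embryos. It was thus above KRT8 in all 6 morula libraries, and, as for KRT8, KDM6A replicates 2 and 3 were below replicate 1. Keratins share sequence, and no source used here says how reads matching several genes were divided, so the split between them is uncertain. Summed over the 8 type II keratins in the files, control morulae held 56.2 ± 5.15 FPKM and 8-cell embryos 4.18 ± 2.06; the 8 type I keratins summed to 64.5 ± 17.4 and 35.2 ± 27.5. Type II per type I was therefore 0.976, 1.12 and 0.645 in control morulae, 0.901, 0.563 and 0.680 in KDM6A morulae and 0.0550, 0.0937 and 0.477 in 8-cell embryos. In the 8-cell libraries KRT17, a type I keratin of basal and appendage epithelia, made up 86.4%, 73.0% and 56.4% of the type I sum, with 57.14, 19.0 and 7.62 FPKM. These sums were formed after the values had been seen and are given as a description.

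Of the 17 other keratins listed, 13 are in the files and 5 passed the filter. In control morulae against 8-cell embryos 3 rose and 1 fell, beside all-gene shares of 42.7% higher and 27.1% lower. KRT5 rose by 3.97 log2 units (SE 0.274, limma adjusted p = 3.05e-06) and KRT15 with 1.19 (SE 0.245, adjusted p = 0.00163), KRT7 rose from 2.88 ± 2.25 to 6.55 ± 1.80 FPKM, and KRT17 fell by 1.66 (SE 0.595, adjusted p = 0.0298). In KDM6A morulae against the same 8-cell libraries KRT5, KRT15 and KRT7 rose and 0 fell, beside all-gene shares of 41.1% higher and 25.6% lower. Between the morula groups 0 of 5 were called, KRT15 having the smallest p (adjusted p = 0.469). Its control morulae held 1.96, 3.65 and 3.59 FPKM and its KDM6A morulae 11.64, 4.11 and 3.1. KDM6A replicate 1 stood far above the rest, and replicate 3 lay within the control range.

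Among the other desmosomal cadherins a desmoglein rose and a desmocollin fell. DSG3, a desmoglein best known from stratified epithelia, rose from 0.13 ± 0.225 FPKM in 8-cell embryos to 4.71 ± 0.499 in control morulae (log2 fold change 2.35, limma adjusted p = 1.67e-05). DSC3, a desmocollin of stratified epithelia, fell from 9.64 ± 0.654 to 3.33 ± 2.56 (-1.45, adjusted p = 0.00513). Desmogleins summed to 1.12, 0.61 and 0.52 FPKM in 8-cell embryos and to 30.5, 48.5 and 32.6 in control morulae, while desmocollins summed to 12.4, 11.2 and 12.5 and to 7.53, 2.77 and 3.69. Desmogleins per desmocollins thus went from 0.0906, 0.0546 and 0.0417 to 4.06, 17.5 and 8.85, and stood at 7.86, 3.60 and 5.55 in KDM6A morulae. The control library with the lowest of these ratios, replicate 1, was also the one with the most oocyte transcript. In KDM6A morulae it was the other way: replicate 1 had the most oocyte transcript and the highest ratio (7.86). Replicate 2 had the least and the lowest ratio (3.60). Whether oocyte transcript bears on these ratios was not tested. Of the 11 genes of this list 3 were tested, the other being PKP4, which was not called. In each comparison with 8-cell embryos 1 rose and 1 fell. Over all genes 42.7% were higher and 27.1% lower in control morulae, and 41.1% and 25.6% in KDM6A morulae. Between the morula groups 0 of 3 were called (PKP4 at 4.87 ± 0.650 and 3.90 ± 1.115 FPKM, limma adjusted p = 0.633). PKP1, PKP3, EVPL and PPL, plaque and cytolinker genes of stratified epithelia, were at or under 0.15 FPKM in all 9 libraries.

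**Figure D4:**
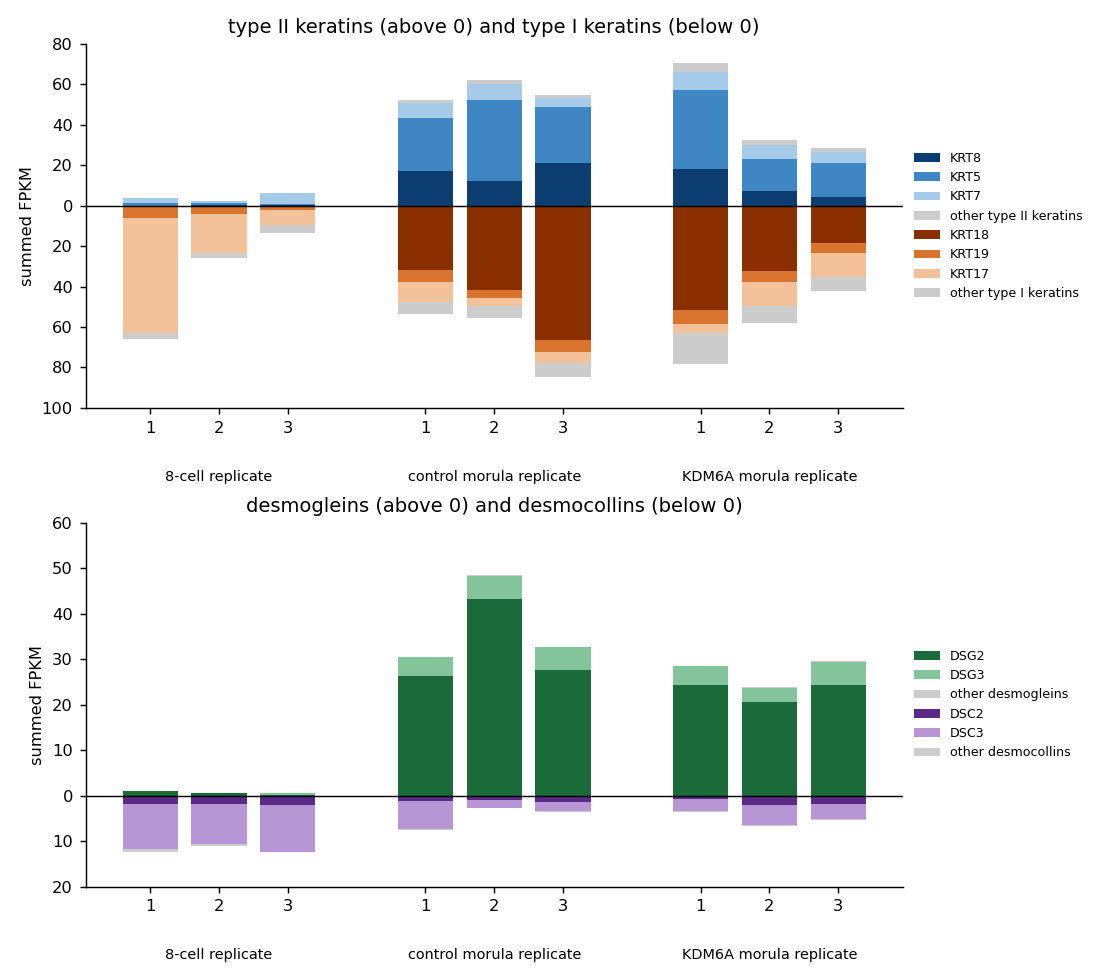
Summed FPKM of the type II (above 0) and type I keratins (below 0), and of desmogleins (above 0) and desmocollins (below 0), in each library, with bars divided by gene and both directions on linear axes. In 8-cell embryos the bars lie mostly below 0, led by KRT17 and DSC3; in all 6 morula libraries KRT8, KRT5 and KRT18 together make up most of the keratin bars, and DSG2 most of the cadherin bars.

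Chromosomal neighbours of the members differed widely in level. In RefSeq annotation of ARS-UCD2.0, which is not the authors' build and is used for gene order only, KRT18 and KRT8 are adjacent protein-coding genes, with EIF4B next to KRT18 and KRT78 next to KRT8. EIF4B, a translation initiation factor, was at 86.1 to 120 FPKM in all 9 libraries, and KRT78 was at most 0.17 in any of them. DSG2 and DSC2 are in a cadherin cluster with DSG3, DSG4, DSG1 and DSC1 between them and DSC3 beyond DSC2. Within it DSG4 and DSG1 were at most 0.18 FPKM, and DSC1 at most 0.6, in any library, so DSG2, DSG3, DSC2 and DSC3 were the members of the cluster with a mean of 1 FPKM in any group.

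Linkers and cell-matrix anchors of keratin were read next. Of 10 cytolinker and hemidesmosome genes 7 were tested, and 5 rose and 0 fell in control morulae against 8-cell embryos, beside 42.7% higher and 27.1% lower over all genes. The tetraspanin CD151 rose from 0.137 ± 0.0666 to 8.09 ± 1.41 FPKM (limma adjusted p = 4.28e-06), the plakin DST from 2.997 ± 1.86 to 19.4 ± 5.34 (adjusted p = 0.000156), and the integrin subunit ITGB1 from 16.4 ± 7.64 to 37.8 ± 4.97 (adjusted p = 0.00518). PLEC, the plakin that ties keratin to other filaments, was at most 0.17 FPKM in any library. In KDM6A morulae against 8-cell embryos 5 rose and 0 fell, beside 41.1% higher and 25.6% lower over all genes. Among the rises were CD151, DST and COL17A1, a hemidesmosomal collagen. Between the morula groups 0 of 7 were called. COL17A1 had the smallest p (adjusted p = 0.148), with 1.59 ± 0.255 FPKM in the control group and 4.46 ± 1.30 after KDM6A injection, and its lowest KDM6A morula, 3.01, lay above its highest control, 1.88.

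Few other intermediate filament genes passed the filter. Of 9, 3 were tested between control morulae and 8-cell embryos, and the lamins LMNB2 (1.037 ± 0.461 to 2.19 ± 0.512 FPKM) and LMNB1 (1.92 ± 0.515 to 3.40 ± 0.646) rose, with limma adjusted p = 0.0362 and 0.0478. Over all genes tested there 42.7% were called higher and 27.1% lower. VIM, the mesenchymal filament gene, was at 0.19 to 0.64 FPKM in morulae and 0.8 to 2.93 in 8-cell embryos. In KDM6A morulae against 8-cell embryos 0 of 4 were called, beside 41.1% of all genes called higher and 25.6% lower. The smallest p there was that of NES, at 1.54 ± 0.921 and 0.583 ± 0.563 FPKM (limma adjusted p = 0.105). Between morula groups 0 of 3 were called (LMNB2 at 1.37 ± 0.391 in KDM6A morulae, adjusted p = 0.445).

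Adherens junctions, in which JUP can take the place of beta-catenin, had transcripts at both stages. In 8-cell embryos CDH1 (E-cadherin) was at 15.9 ± 3.12 FPKM and CTNNA1 at 9.89 ± 2.41, and both rose in control morulae, to 49.5 ± 5.12 and 46.75 ± 7.22 (limma adjusted p = 0.000123 and 3.52e-05). AFDN, an actin-linked junction scaffold, rose from 4.48 ± 0.0624 to 51.2 ± 15.2 (adjusted p = 6.42e-06). Of 6 tested, 5 rose in control morulae and 4 in KDM6A morulae against 8-cell embryos, and 0 fell, beside 42.7% and 41.1% of all genes higher and 27.1% and 25.6% lower. Between the morula groups 0 of 6 were called. CDH1 had the smallest p, with control morulae at 53.56, 51.1 and 43.72 FPKM and injected ones at 67.94, 93.4 and 79.38, which did not overlap (log2 fold change 0.68, adjusted p = 0.211).

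Of 13 transcription factors known from epithelia and trophectoderm, 9 were tested in control morulae against 8-cell embryos, and 5 rose and 3 fell, beside 42.7% of all genes higher and 27.1% lower. TEAD4, the Hippo pathway factor of trophectoderm, rose from 7.30 ± 1.92 to 45.1 ± 2.84 FPKM (limma adjusted p = 1.47e-05). GRHL1, a grainyhead factor of epithelial junctions, rose from 0.240 ± 0.115 to 5.96 ± 2.46 (adjusted p = 6.59e-05). The factors below the filter all had lower means in control morulae than in 8-cell embryos. These were OVOL1 (0.303 against 1.30 FPKM), ELF3 (0.247 against 0.853), TFAP2A (0.0433 against 0.563) and GRHL2 (0.307 against 0.657). The 3 that fell were TFAP2C (349 ± 66.4 to 167 ± 5.31 FPKM, limma adjusted p = 0.000618), KLF4 (219 ± 20.8 to 133 ± 30.5, adjusted p = 0.00991) and EHF (11.5 ± 10.4 to 3.13 ± 1.59, adjusted p = 0.0375). In KDM6A morulae against 8-cell embryos 4 of 10 rose, KLF5 and TEAD4 among them, and 2 fell, TFAP2C and KLF4. Over all genes tested there 41.1% were called higher and 25.6% lower. Between the morula groups 0 of 9 were called. GATA3, a trophectoderm factor, had the smallest p, its control mean being 7.65 ± 0.660 FPKM and its mean after injection 2.73 ± 0.501 (log2 fold change -1.22, adjusted p = 0.0561).

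Median log2 fold changes were taken over the tested genes of each of these lists. In control morulae against 8-cell embryos they were 1.09 for other keratins, -0.42 for other desmosome genes and 0.80 for linkers. For other filament genes, adherens junction genes and the transcription factors they were 0.60, 1.48 and 1.27, beside 0.35 for all genes tested. Between KDM6A and control morulae the medians, in the same order, were 0.34, -0.18, -0.051, -0.23, -0.20 and -0.43, beside -0.012.

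The genes most like the members were ranked by Pearson's r of log2(FPKM + 1) over the 9 libraries, among 7269 other genes. SERPINB6, ZC3HAV1L, WIPF1, CYP20A1 and FAM91A1 were most like the mean of KRT8 and KRT18, with r of 0.991 to 0.994. RHPN2, OPTN, PRKCZ and FAM136A were among the 5 most like the mean of the 5 desmosome members DSP, DSC2, DSG2, JUP and PKP2, with r of 0.995 to 0.997. SERPINB6, a serpin, was at 1.02, 0.95 and 1.26 FPKM in 8-cell embryos, 8.07, 9.05 and 8.39 in control morulae and 9.07, 5.79 and 4.84 in KDM6A morulae. PRKCZ, an atypical protein kinase C known for cell polarity, was at 0.42, 0.08 and 0, at 10.19, 18.07 and 12.34, and at 10.4, 10.55 and 6.99. Because all 9 libraries share the step between stage and source series, r of at least 0.9 was reached by 27.1% of the genes ranked for the keratin pair and by 29.1% for the desmosome mean.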

How the data were processed

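Embryo RNA was sequenced in 9 libraries, the 6 morula libraries from pools of 5 embryos. The submitters' processing notes name HISAT 0.1.6, Bowtie2 2.2.5, RSEM 1.2.12, StringTie 1.0.4, bcl2fastq and the genome build UMD3.1. What each tool did is not stated in any source used here. Per the file headers the authors deposited FPKM, written with 2 decimals. Gene rows summed to 820346 to 989916 FPKM per library. Depth is unknown: ratios of values from 0.15 to below 1 FPKM showed no steps of whole reads, with 4.30% to 9.01% of genes in the most common log2 bin of 0.1 over 36 library pairs, so precision is taken from the replicates.

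Files were joined by gene identifier (16713 genes in the morula files, 16129 in all 9). For control morula replicate 1, 3038 unannotated rows were left out. A gene was tested when 3 or more of the 6 libraries compared reached 1 FPKM. The test was limma 3.58.1 (R 4.3.3) on log2(FPKM + 1), fitting group means with a trended prior variance, and Benjamini-Hochberg adjustment over all genes tested (threshold 0.05). Folds on this scale understate changes of low genes. Ratios within libraries were compared by exact two-sided permutation tests (scipy 1.17.1). In simulated data 200 genes were changed by 1 or 2 log2 units. They were drawn from genes with a mean of about 5 FPKM or more, so low genes such as DSP and DSC2 were not covered. That share of changed genes was far below the 69.8% and 66.7% called in the real 8-cell comparisons. It was above the 0.164% called between the real morula groups, so the recovery given for that comparison may be too high. In the KDM6A against control, control against 8-cell and KDM6A against 8-cell comparisons, 55%, 29% and 37% of genes changed by 1 unit were recovered. Of those changed by 2 units, 91%, 86% and 87% were recovered. Unchanged genes called numbered 11, 6 and 3. Alternatives were a pseudocount of 0.1, no filter, a filter of 5 FPKM, quantile and median-of-ratios scaling, array weights, a joint fit of all 9 libraries, leaving out each replicate, and a block for replicate number. Every member is named; from each other list up to 3 called genes with the smallest adjusted p are named per comparison, or, with none called, the gene with the smallest p; a few that this rule selects are not reported here. Genes named beyond that rule were chosen after their values were seen. The members and lists were chosen with earlier results of these data known.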

Additional observations from a re-analysis of the deposited data

How the results depend on the processing

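Between KDM6A and control morulae the 16 calls over all genes became 0 with no filter, 28 after quantile normalization, 10 with all 9 libraries in the fit, 2510 with array weights, and 1 to 725 with a replicate left out (8 without control replicate 2, 3 without control replicate 3 or KDM6A replicate 2, 1 without KDM6A replicate 3, 725 without KDM6A replicate 1). The members called were 0 in the other alternatives, 3 with array weights, and 0 to 1 with a replicate left out. Deviations of same-numbered libraries were weakly correlated (r from -0.24 to 0.16 for the morula groups). There 2 of 6 libraries correlated best with their own number, and 0 and 4 of 6 in the 8-cell comparisons with control and KDM6A morulae. With 3 libraries a group this cannot decide whether the numbers pair libraries, and the main fit did not pair them. With the replicate number as a block 1 gene and 0 members were called between the morula groups. The members' calls in the 8-cell comparisons were then 6 and 7, as without it. Signs turned for KRT19 (-0.098 with array weights, -0.045 without KDM6A replicate 1, -0.075 without control replicate 2), JUP (0.053 with array weights, 0.0074 without KDM6A replicate 3) and PERP (0.053 without KDM6A replicate 3, 0.022 without control replicate 2); values with a replicate left out ran from -0.075 to 0.16 for KRT19, from -0.35 to 0.0074 for JUP and from -0.27 to 0.053 for PERP; the cause was not tested.

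Of KDM6A morulae against 8-cell embryos 7 members were called, and 4 to 7 with a replicate left out. The 4 arise when a KDM6A morula is left out, since KRT8, KRT18 and DSP then reach 1 FPKM in only 2 libraries and are not tested; with the genes kept that all 6 libraries passed, an alternative added after the data were seen, 7 were called each time. KRT8 and KRT18 dropped out in the same way from the comparison with control morulae, where 4 to 6 were called, and 6 each time with the genes kept. With a pseudocount of 1 the differences in log2 ratio were -4.71 and -4.15 for KRT19 to KRT18 and 4.81 and 4.18 for DSG2 to DSC2, in control and KDM6A morulae against 8-cell embryos. KRT8 to KRT18 was not compared with 8-cell embryos, where KRT8 was at 0 in 1 library. With 3 libraries a group and unknown depth, 55% of genes given a change of 1 log2 unit were recovered between the morula groups. For control and KDM6A morulae against 8-cell embryos that share was 29% and 37%. Given a change of 2 units, 91%, 86% and 87% were recovered, in the same order. Recovery of changes under 1 log2 unit was not tested.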
